A study of Mus musculus with 8 samples.

Results

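The comparison is of CD8+ dendritic cells of mouse spleen kept in medium alone for 16 hours with the same kind of cells kept for 4 hours. It holds 4 of the 8 arrays of the series, the 2 titled as 16-hour controls and the 2 titled as 4-hour controls, which carry the replicate numbers 1 and 2 at each time. All cells came from female DBA/2J mice aged 60 days that had been given 10 µg of Flt3 ligand, a growth factor that expands dendritic cells, for 9 days, so the controls carry that treatment too. The other 4 arrays are of cells treated with IFN-γ (interferon gamma, 200 U/ml), 2 arrays at 4 hours and 2 at 16 hours, and are used here for the shared estimate of spread and for the matching comparison over time. About 10 µg of total RNA was labelled and hybridised to an Affymetrix mouse expression array, which reads each transcript with a set of short probes. The arrays in medium are called early (4 hours) and late (16 hours) where a fit leaves 1 out. Nothing in the labels tells whether the 2 arrays of a group had different mice or cultures behind them, and the p-values therefore reflect array-to-array spread alone, which may be technical. No sample of cells before culture was analysed here, so the values show the course from 4 to 16 hours and not the change from the spleen.

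Dendritic cells sample their surroundings, and on activation they mature: NF-κB factors drive costimulatory molecules, the chemokine receptor CCR7 and the actin bundler fascin, while uptake and degradation of material decline. Handling and culture of dendritic cells are known to start such a programme without an added stimulus. Macrophages, the neighbouring phagocytes of the spleen, are known for complement C1q, Fc receptors, scavenger receptors, lysozyme and a large lysosomal system, and some of these genes are also read in dendritic cells. In RNA from a population, more or fewer cells of a type and more or less RNA per cell cannot be told apart.

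Values are log2 of the deposited linear intensity, and a difference is the 16-hour mean minus the 4-hour mean on that scale. Median intensity lay between 51.3 and 53.5 on the 4 arrays in medium. Unspecific signal was gauged by the median of 15 antisense controls, which corresponds to a log2 intensity of 5.69 at 4 hours and 5.79 at 16 hours. Where a group mean lies below these values, the size of the difference is uncertain. Of the genes given with values, C1qb, C3ar1, Ccl2, Ccr1, Fos, Ido1, Ikzf1, Itgam, Stab1 and Vcan lay below them only at 4 hours, and Cd200, Cxcl2, Eno2, Eprs, Hspa1b and Spic only at 16 hours. Those below at both times are named where they are described. RNA and labelling quality were gauged by the Actb 3′ to 5′ ratio, which was 2.04 and 2.20 at 4 hours and 1.63 and 1.57 at 16 hours. The same ratio of Gapdh was 1.14 and 1.31 at 4 hours and 0.885 and 0.827 at 16 hours. On the IFN-γ arrays at 4 hours the ratio was 1.47 and 1.65 for Actb and 0.876 and 0.918 for Gapdh. Both ratios were thus higher on the 2 early arrays in medium than on every other array of the series. Their part in the results in medium was not tested. The arrays of a group correlated across probe sets with r = 0.997 at 4 hours and 0.993 at 16 hours.

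Between 4 and 16 hours in medium, the calls included rises in 10 of 15 macrophage markers, 7 of 16 complement genes and 9 of 42 lysosomal genes, and falls in 13 of 25 maturation genes, 13 of 34 proteasome subunits and 11 of 53 cell cycle genes. Of 8251 genes, each read by its brightest probe set, 133 rose (1.61%) and 251 fell (3.04%), 384 in all (4.65%), at an adjusted p under 0.05 by limma with Benjamini-Hochberg adjustment over the 12422 probe sets tested. The 133 rises had a median of 0.77 and reached 2.08, and 34 of them were at least 1. The 251 falls had a median of -0.68 and reached 2.02 in size, and 31 were at least 1 in size. The median over all genes was 0.04. Both 16-hour arrays lay beyond both 4-hour arrays in all 384 genes, beside 29.8% of all genes that did so upward and 24.2% that did so downward. Among the rises, 33 genes were below the antisense controls at 4 hours.

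By probe set, 212 were higher (1.71%) and 319 lower (2.57%), 531 in all (4.27%). With the replicate number as a block, limma called 562 probe sets higher (4.52%) and 1005 lower (8.09%), 1567 in all (12.6%), and the 531 calls were among them. By gene, the block gave 347 higher (4.21%) and 805 lower (9.76%), 1152 in all (14%). The block counts of the gene lists below are to be read beside these shares. The counts of genes higher and lower were 27 and 20 without early array 1, and 35 and 25 without early array 2. They were 72 and 47 without late array 1 and 52 and 101 without late array 2, 85 and 102 without either 4-hour IFN-γ array, and 212 and 466 without either 16-hour IFN-γ array. Of the 156 called genes that the rule for naming takes up, 39 were called whichever array was left out, and the other 117 each lost the call without at least 1 of the 4-hour arrays in medium.

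**Figure D1:**
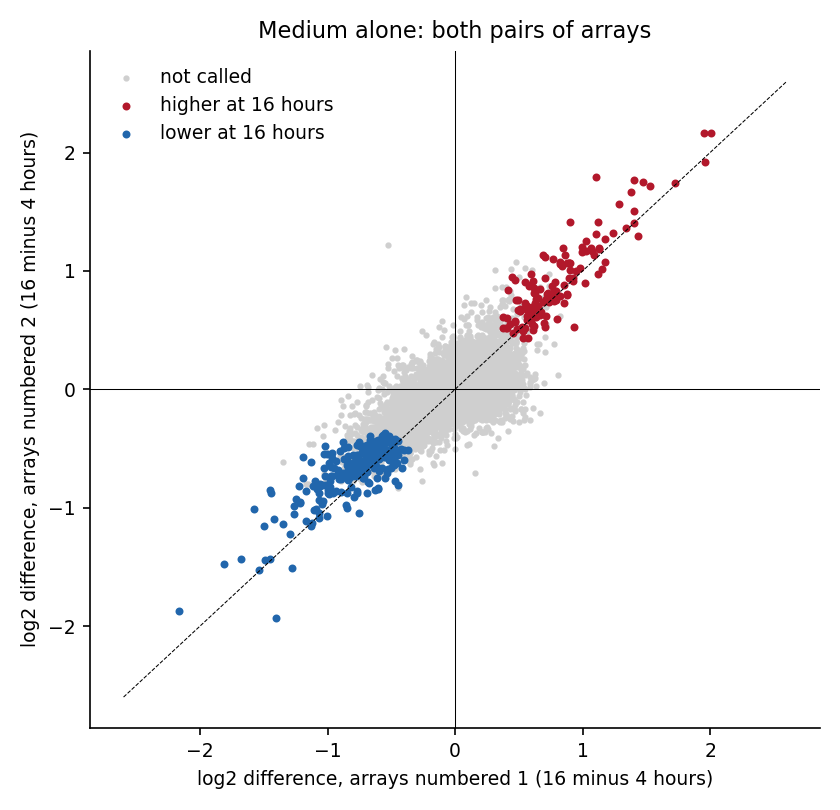
Each point is 1 of 8251 genes, with its log2 difference, 16 minus 4 hours in medium, on the arrays numbered 1 (horizontal) and numbered 2 (vertical); the dashed line marks equal differences. The 133 genes called higher (red) and the 251 called lower (blue) lie in the corners where both pairs of arrays moved the same way.

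The genes with the largest rises encode the recognition molecules of phagocytes. Fcgr1, the high-affinity receptor for immunoglobulin G, went from 6.08 and 6.16 at 4 hours to 8.09 and 8.32 at 16 hours, a rise of 2.08 (SE 0.16, adjusted p = 0.00036). C1qa, C1qb and C1qc encode the chains of C1q, which starts the classical complement pathway. C1qa went from 6.53 and 6.59 to 8.49 and 8.51, and C1qc from 7.49 and 7.36 to 9.21 and 9.10. The groups stood far apart for each of these genes, and the arrays of a group lay close together. C1qb rose by 2.06 on its brighter probe set (adjusted p = 0.00025), from the level of the antisense controls at 5.77 and 5.54, and the dimmer probe set, below those controls, differed by 0.23 (adjusted p = 0.554). A second probe set of Fcgr1 rose by 1.81 (adjusted p = 0.0040).

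Of 16 measured complement components and receptors, 7 rose and 0 fell, with a median of 0.45. Besides the C1q chains these were C3ar1, the receptor for the fragment C3a, Cfp, which encodes properdin, a stabiliser of the alternative pathway's convertase, and Itgam and Itgb2, the chains of complement receptor 3. C3ar1 read 5.41 and 5.56 at 4 hours, below the antisense controls, and 6.82 and 7.07 at 16 hours (1.46, adjusted p = 0.00051). Cfp rose by 1.14, Itgam by 1.12 and Itgb2 by 0.68. The block called 9 of the 16, and leaving out 1 array left between 5 and 7 called.

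The promoter of C1qc is shown with a match to the core site of PU.1, a transcription factor of myeloid cells, in capitals. Among the C1q genes a match was found for C1qc alone. It is the 300 bases at chr4:136892865-136893164 of GRCm38.p6, on the minus strand, written 5′ to 3′ from 250 bases before the RefSeq start to 50 after it. The match begins 195 bases before the start.
C1qc: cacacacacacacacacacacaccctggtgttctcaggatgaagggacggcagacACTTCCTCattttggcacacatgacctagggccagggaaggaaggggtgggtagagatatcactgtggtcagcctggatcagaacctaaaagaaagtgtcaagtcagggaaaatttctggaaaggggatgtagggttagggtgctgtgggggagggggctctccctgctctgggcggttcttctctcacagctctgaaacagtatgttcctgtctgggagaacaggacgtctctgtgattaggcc
The letters searched were GAGGAAGT on both strands, which 3.20% of the 32851 promoters in the RefSeq table hold, and 3.30% of the 6576 arrayed genes with a promoter there. Among the 133 genes that rose, 100 had a promoter in the table and 6 held the letters (6%). Among the 251 that fell, 200 had one and 4 held them (2%). Of 10 macrophage markers with a promoter there, 1 held them. A match is a run of letters and not a measured binding site.

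Fc receptors and their signalling partners moved less as a group: 3 of 14 measured rose, 0 fell, and the median was 0.19. The others besides Fcgr1 were Tyrobp, which encodes the adaptor DAP12, from 9.88 and 9.73 to 10.77 and 10.67 (0.92, adjusted p = 0.0044), and Pirb, an inhibitory receptor (0.78). Tyrobp lost the call without early array 2 (adjusted p = 0.0771), and Pirb without early array 1 (adjusted p = 0.0642) or 2 (adjusted p = 0.0922). Cd300c2, an activating receptor of myeloid cells, went from 6.71 and 6.75 at 4 hours to 8.11 and 8.16 at 16 hours, a rise of 1.41.

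**Figure D2:**
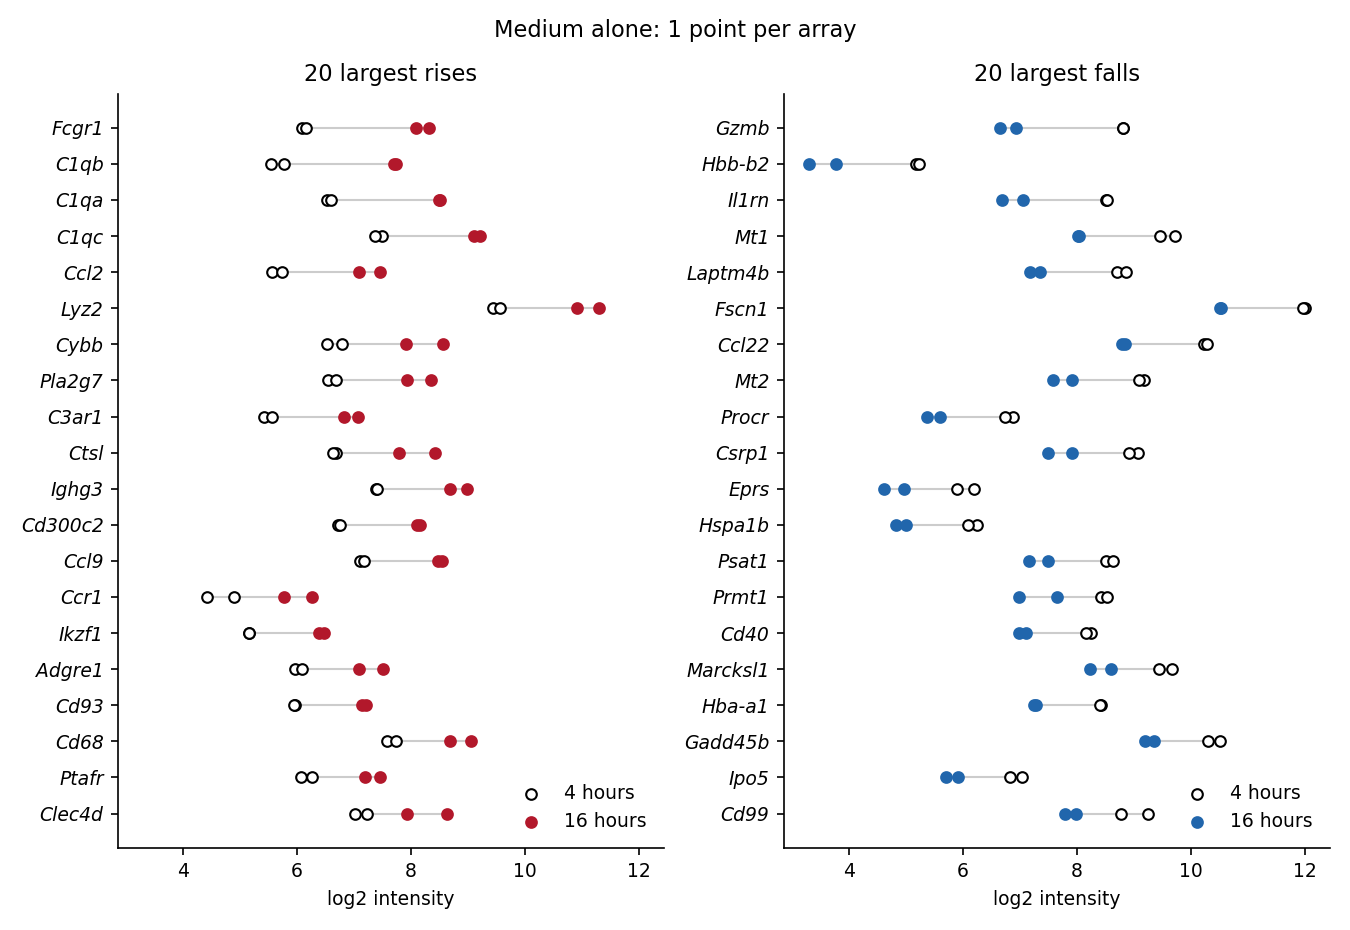
Log2 intensity of the 20 genes with the largest rises (left, red) and the 20 with the largest falls (right, blue) in medium, 1 point per array, with open circles for 4 hours and filled circles for 16 hours. For each gene both 16-hour arrays lie on one side of both 4-hour arrays, which the choice of these genes required.

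Receptors that take up microbes, lipids and dying cells rose in part. Of 20 measured pattern recognition and uptake receptors 7 rose and 0 fell, with a median of 0.33, beside 1.61% of all genes that rose. Cd93, a C-type lectin-like receptor, went from 5.97 and 5.94 to 7.14 and 7.21 (1.22, adjusted p = 0.00079). Stab1, a scavenger receptor, went from 5.68 and 5.69 to 6.86 and 6.76 (1.12). Arrays of a group agreed closely for both, and the groups did not overlap, as for every called gene. Msr1, the class A scavenger receptor, rose by 1.09, Clec4d by 1.16 and Clec4a2 by 1.08. Mrc1, the mannose receptor (0.84), Mertk, a receptor for dying cells (0.62), and Clec4a2 were below the antisense controls at both times. The block called 10 higher and 1 lower, beside 4.21% and 9.76% of all genes. The count was 3 and 4 without early array 1 or 2, 4 without late array 2, and 5 to 8 without any 1 of the other arrays.

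Cd14, the co-receptor for lipopolysaccharide, went from 9.26 and 9.46 at 4 hours to 9.27 and 9.46 at 16 hours. Ly75, the endocytic receptor DEC-205 of this dendritic cell subset, went from 7.71 and 8.14 at 4 hours to 6.54 and 7.33 at 16 hours, a difference of -0.99 (SE 0.36; adjusted p = 0.20, and 0.0041 with the block). Its arrays numbered 2 were the higher at each time.

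Of 25 measured chemokines 3 rose, Ccl2, Ccl7 and Ccl9 (12%, beside 1.61% of all genes). Ccl22 and Cxcl2 fell (8%, beside 3.04% of all genes), and the median was 0.01. Ccl2, which draws monocytes, went from 5.55 and 5.73 to 7.08 and 7.45 (1.63, adjusted p = 0.0050). Ccl9 went from 7.11 and 7.18 to 8.54 and 8.47 (1.36, adjusted p = 0.00046). Ccl22, a chemokine of mature dendritic cells that draws CCR4-bearing T cells, went from 10.24 and 10.28 to 8.79 and 8.85 (-1.44, adjusted p = 0.00031). As for every called gene, none of these groups overlapped. Ccl7 (0.96) was below the antisense controls at both times, and Cxcl2 (-0.74), a neutrophil attractant, was below them at 16 hours. With the block 5 rose and 6 fell, beside 4.21% and 9.76% of all genes. Ccl9 and Ccl22 were called whichever array was left out, and Ccl2 lost the call only without early array 1 (adjusted p = 0.0669). Ccl7 and Cxcl2 lost it without any 1 of the 4 arrays in medium (adjusted p from 0.0648 to 0.214 for Ccl7 and from 0.0974 to 0.225 for Cxcl2).

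Of 18 chemokine receptors, Ccr1 and Ccr2 rose and Ccr7, which guides mature dendritic cells to lymph nodes, fell. Ccr1 read 4.42 and 4.89 at 4 hours, below the antisense controls, and 5.76 and 6.26 at 16 hours (1.35, adjusted p = 0.012). Ccr7 read 10.99 and 10.89 and then 10.07 and 10.16 (-0.82, adjusted p = 0.013). Ccr7 lost the call without early array 1 (adjusted p = 0.136) or 2 (0.093) and without late array 1 (0.0823). Ccr1 lost it without early array 1 (0.119) or late array 2 (0.062).

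Of 42 measured lysosomal proteases, hydrolases and membrane proteins 9 rose and 1 fell, Cd63, with a median of 0.27. The list is not complete: Laptm4b, a lysosomal membrane protein that is not on it, fell by 1.53 (adjusted p = 0.00046). Ctsd, which encodes the aspartic protease cathepsin D, went from 9.74 and 9.67 to 10.86 and 10.65 (1.05, adjusted p = 0.0020). Ctsl, cathepsin L, went from 6.69 and 6.63 to 7.79 and 8.43 (1.45, adjusted p = 0.0039). Its 16-hour arrays lay apart, with array 2 the higher, and both lay above the 4-hour arrays. Ctsb rose by 0.77, Hexa by 0.77 and Man2b1 by 0.76. The brightest protease, Ctss, went from 10.68 and 10.84 at 4 hours to 11.12 and 11.60 at 16 hours (0.60; adjusted p = 0.12, and 0.0070 with the block). The block called 17 higher and 3 lower, beside 4.21% and 9.76% of all genes. The rises numbered 2 and 3 without early array 1 and 2, 5 without either late array, and 13 without either 16-hour IFN-γ array. Ctsd and Ctsl were called each time.

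Of 15 subunits of the vacuolar proton pump, which acidifies the lysosome, 0 were called by limma, and 0 with the block, with a median of 0.02 and a range from -0.18 to 0.14. All 15 thus lay within 0.18 of no change.

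The promoter of Ctsd is shown with a match in capitals to the CLEAR site, the box read by TFEB-type factors in many lysosomal genes. It lies at chr7:142387778-142388077 of GRCm38.p6, on the minus strand, and the match begins 99 bases before the RefSeq start.
Ctsd: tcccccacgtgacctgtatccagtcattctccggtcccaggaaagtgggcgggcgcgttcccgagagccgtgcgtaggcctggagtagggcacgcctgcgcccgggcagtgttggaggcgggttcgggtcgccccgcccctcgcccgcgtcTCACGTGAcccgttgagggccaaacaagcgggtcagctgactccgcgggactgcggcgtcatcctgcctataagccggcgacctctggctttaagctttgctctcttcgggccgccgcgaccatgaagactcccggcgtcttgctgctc
The letters searched were TCACGTGA, the same on both strands, held by 0.974% of all promoters in the table, 1.92% of those of arrayed genes, 5% of the 100 for genes that rose (5, among them Ctsa and Ctsd) and 1.5% of the 200 for genes that fell. Of 37 lysosomal genes with a promoter there, 4 held them.

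Among 21 measured genes of cholesterol efflux and lipid handling, 3 rose and 2 fell, with a median of 0.04. Apoe, the apolipoprotein of macrophages, went from 10.19 and 9.96 to 11.01 and 11.02 (0.94, adjusted p = 0.0057). Plin2, which coats lipid droplets, went from 8.54 and 8.46 to 9.43 and 9.53 (0.97, adjusted p = 0.0022). Apoc2 rose by 0.93, and Scd2 and Fasn, a desaturase and the fatty acid synthase, fell by 1.04 and 0.73. Apoe lost the call without early array 2 (adjusted p = 0.0853). A dimmer probe set of Apoe, far below the antisense controls, differed by -0.02. Fasn lost the call without any 1 of the 4 arrays in medium (adjusted p between 0.0553 and 0.124).

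Of 18 genes of cholesterol synthesis and uptake, 2 fell and 0 rose, with a median of -0.27. Fdps, the farnesyl diphosphate synthase, went from 9.40 and 9.33 to 8.29 and 8.31 (-1.06, adjusted p = 0.00099), and Idi1, which supplies its substrate, from 8.97 and 8.97 to 7.89 and 7.96 (-1.05). Both were called whichever array was left out. Fdps has 3 dimmer probe sets, of which 1 fell by 1.13 (adjusted p = 0.0029) and 2, far below the antisense controls, differed by 0.25 and 0.10. The block called 8 lower, with Hmgcs1, the enzyme that feeds the pathway, at -0.70 (adjusted p = 0.14, or 0.0030 with the block).

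Genes of metals and oxidants moved both ways, 5 up and 6 down of 30 measured. Mt1 and Mt2, the metallothioneins, which bind zinc and copper, fell, Mt1 from 9.72 and 9.45 to 8.04 and 8.02 (-1.56, adjusted p = 0.00083) and Mt2 from 9.18 and 9.10 to 7.91 and 7.59 (-1.39). Sqstm1, a target of the oxidant sensor NRF2, fell by 0.94. Cybb, the catalytic subunit of the phagocyte NADPH oxidase, rose from 6.52 and 6.80 to 7.92 and 8.57 (1.59, adjusted p = 0.0039). Slc11a1, a metal transporter of phagosomes, went from 7.21 and 7.16 to 8.24 and 8.33 (1.09), and Hmox1, heme oxygenase, rose by 0.63. The counts up and down were 1 and 2 without early array 1. They were 2 and 3 without early array 2 or late array 1. They were 2 and 5 without late array 2, and 3 and 5 without either 4-hour IFN-γ array. Mt1, Mt2 and Slc11a1 were called each time.

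The labelled cell type was checked against its markers. Of 12 measured markers of CD8+ dendritic cells 1 fell and 0 rose, with a median of -0.05. Cd8a read 8.83, 8.88, 8.74 and 8.85 on the 4 arrays and Itgax, which encodes CD11c, 6.51, 6.44, 6.40 and 6.45, each without a shift between the times. The one that fell was Irf8, the transcription factor of this subset, from 10.03 and 10.03 to 9.60 and 9.53 (-0.47, adjusted p = 0.039). Irf8 lost the call without any 1 of the arrays in medium or of IFN-γ at 4 hours (adjusted p from 0.0902 to 0.266) and with quantile normalization (adjusted p = 0.127). Itgae and Xcr1 were below the antisense controls. With the block 5 of the 12 markers fell, beside 9.76% of all genes. They were Irf8 and also Ly75 (-0.99), Id2 (-0.48), Batf3 (-0.36) and Flt3 (-0.33).

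Markers of other cells were measured beside them, since a purified population may hold some. Of 15 macrophage markers 10 rose and 1 fell, with a median of 1.0. Lyz2, lysozyme, went from 9.45 and 9.56 to 10.92 and 11.31 (1.61, adjusted p = 0.0022), Adgre1, the F4/80 antigen, from 5.97 and 6.09 to 7.09 and 7.51 (1.27), and Cd68 from 7.57 and 7.74 to 8.68 and 9.05 (1.21). The summed intensity of the 15 was 1816 and 1850 on the early arrays and 4617 and 5416 on the late ones, so both late arrays held over 2 times the signal. The 6 members Cd5l, Marco, Mertk, Mrc1, Siglec1 and Vcam1, which mark macrophages of spleen zones and tissues, were below the antisense controls. Spic, the factor of red pulp macrophages, fell from 6.28 and 6.32 to 5.06 and 5.50 (-1.02, adjusted p = 0.020). C1qa, C1qb, C1qc, Cd68, Fcgr1, Mrc1 and Mertk are thus on this list as well as on those above, and the part of macrophages in those results was not tested.

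The macrophage markers that rose numbered 5 and 7 without early array 1 and 2, and 9 or 10 without any 1 of the others. Adgre1 and Cd68 lost the call without early array 1 (adjusted p = 0.0777 and 0.0764). Spic lost it without either early array (0.137 and 0.151) or late array 1 (0.114). The dimmer probe sets of Lyz2 and Cd68, far below the antisense controls, differed by 0.26 and 0.09. Csf1r, the receptor for the growth factor of macrophages, rose by 1.0 and lost the call without early array 1 (0.0526) or 2 (0.0979), and its dimmer probe set, also below them, differed by -0.01.

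Of 8 monocyte markers 4 rose (Ccr2, Itgam, Ly86 and Vcan) and 0 fell, with a median of 0.44. Their summed intensity was 5032 and 5657 at 4 hours and 5493 and 6463 at 16 hours, ranges that overlap. Ccr2 went from 6.99 and 7.25 to 7.88 and 8.32 (0.98, adjusted p = 0.031), and Vcan, a matrix proteoglycan, from 5.31 and 5.38 to 6.19 and 6.18 (0.84, adjusted p = 0.0033). Of the 4 none was called without early array 1, 1 without early array 2, and 1 without late array 2.

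Of 9 erythroid markers the globin genes Hba-a1 and Hbb-b2 fell and were called whichever array was left out. Hba-a1 went from 8.42 and 8.41 to 7.28 and 7.25 (-1.15, adjusted p = 0.00099). Hbb-b2 was below the antisense controls. Of 12 B cell markers Blnk and Vpreb3 rose, of 8 markers of CD8- dendritic cells Clec4a2 and Itgam, of 7 of plasmacytoid dendritic cells Cd7, and of 10 of mast cells Mcpt8. Vpreb3 was below the antisense controls at both times. Sirpa, which marks CD8- dendritic cells and macrophages, had a difference of 0.55 for the brightest of 3 probe sets (adjusted p = 0.14, and 0.015 with the block) and rose by 0.90 (adjusted p = 0.0029) and 1.14 (adjusted p = 0.0013) on the others. Of 12 neutrophil markers 1 fell, Ngp. The B cell median was 0.32 (5 higher with the block), and the calls of Blnk, Vpreb3, Cd7, Mcpt8 and Ngp were lost without either early array. None of 12 T cell, 8 NK cell, 4 megakaryocyte or 10 stromal and endothelial markers was called by limma. The block called 2 T cell markers lower (9.76% of all genes) and 1 NK cell marker higher (4.21% of all genes).

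**Figure D3:**
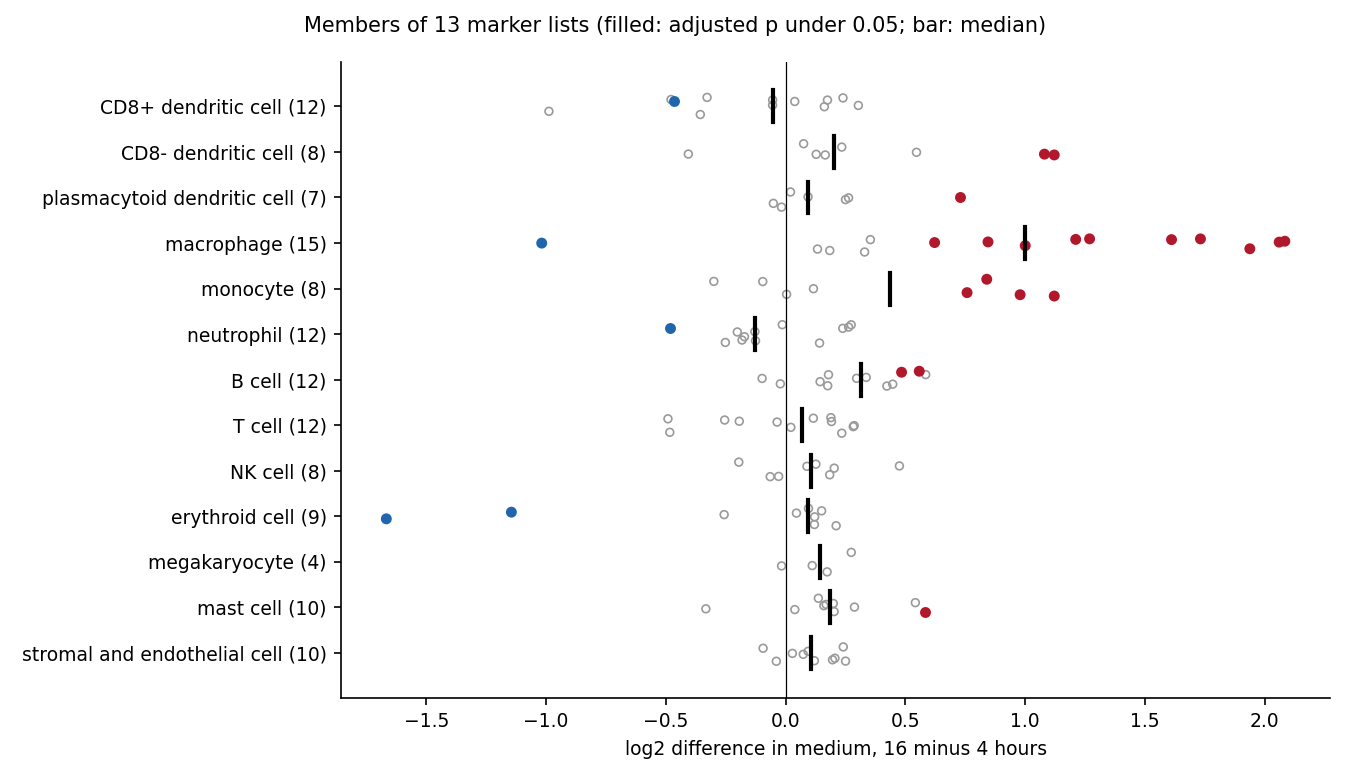
Log2 difference, 16 minus 4 hours in medium, of each measured member of 13 marker lists, with the number of members in brackets, the called members filled (red higher, blue lower) and the list's median as a bar. The macrophage list has a median of 1.0 and 10 called higher, and the CD8+ dendritic cell list a median of -0.05.

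Genes of costimulation and maturation held the largest count of falls among the lists, together with the proteasome. Of 25 measured, 13 fell (52%, beside 3.04% of all genes) and 0 rose, with a median of -0.63, and 24 of the 25 had a negative difference. Fscn1, the actin-bundling protein fascin, was among the brightest and went from 12.01 and 11.97 to 10.52 and 10.53 (-1.46, adjusted p = 0.00025). Cd40, the receptor through which T cells license dendritic cells, went from 8.25 and 8.16 to 6.99 and 7.11 (-1.16, adjusted p = 0.0022). Cd83, a marker of mature dendritic cells, went from 10.24 and 10.30 to 9.14 and 9.53 (-0.93), and Icam1, an adhesion molecule, from 7.99 and 7.98 to 6.93 and 7.18 (-0.93). As for every called gene, no 16-hour array reached a 4-hour array in these genes. Cd200 fell by 1.09 and Marcksl1 by 1.15. A dimmer probe set of Cd83, above the antisense controls, differed by -0.13 (adjusted p = 0.676), and with 1 mean value per gene Cd83 differed by -0.53 and lost the call (adjusted p = 0.0661).

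The block called 20 of the 25 lower. The count was 3 without either early array, 4 without late array 1 and 8 without late array 2. Ccl22, Cd40 and Fscn1 were called whichever array was left out. Summed over the list, intensity was 16081 and 15836 at 4 hours and 7885 and 8715 at 16 hours.

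Members of the NF-κB pathway, which controls many of these genes, fell in smaller number: 7 of 21, with 0 higher and a median of -0.28. Relb and Traf1 are counted in this list and in the maturation list. Ccl22, Ccr7, Icam1 and Serpinb9 of the maturation list are also counted in other lists given here. Nfkb2, the precursor of the p52 subunit, went from 8.99 and 8.71 to 8.18 and 7.88 (-0.82, adjusted p = 0.022), and Relb, its partner, from 10.06 and 9.82 to 9.28 and 9.16 (-0.72, adjusted p = 0.022). Nfkbia, the inhibitor IκBα and itself a target of the pathway, went from 10.57 and 10.36 to 10.00 and 9.83 (-0.55, adjusted p = 0.040). Rela fell by 0.62, and Traf1, an adaptor of TNF receptors, by 0.78. The groups stood apart in each, as for every called gene, but no call of the 7 was kept without early array 1 or 2. Without late array 1 and 2 the calls were 2 and 1, and 3 without either 4-hour IFN-γ array. The block called 9, and quantile normalization 5, with Nfkbia (adjusted p = 0.123) and Rela (adjusted p = 0.109) lost.

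The promoter of Nfkbia is shown because it holds the pathway's own recognition letters, in capitals, at 2 places. It lies at chr12:55492598-55492897 of GRCm38.p6, on the minus strand, and the first match begins 178 bases before the RefSeq start.
Nfkbia: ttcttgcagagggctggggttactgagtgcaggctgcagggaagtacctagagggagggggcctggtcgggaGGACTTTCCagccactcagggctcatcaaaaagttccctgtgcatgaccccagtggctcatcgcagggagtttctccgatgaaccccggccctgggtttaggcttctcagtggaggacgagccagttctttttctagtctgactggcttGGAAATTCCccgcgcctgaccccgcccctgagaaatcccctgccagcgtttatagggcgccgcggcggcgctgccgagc
The letters searched were GGANTTTCC on both strands, held by 1.25% of all promoters in the table, 1.87% of those of arrayed genes, 4% of the 200 for genes that fell (8, among them Cxcl2, Icam1, Nfkb2 and Nfkbia) and 3% of the 100 for genes that rose. Of the 18 NF-κB pathway genes with a promoter there, 3 held them.

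The largest fall of all was that of Gzmb, which encodes granzyme B, a protease of cytotoxic granules. It read 8.81 on both arrays at 4 hours and 6.65 and 6.94 at 16 hours (-2.02, SE 0.13, adjusted p = 0.00018). Of 14 granule genes 3 fell and 0 rose, the others being Srgn, the proteoglycan that packs such granules (-0.97), and Serpinb9, an inhibitor of granzyme B (-0.81). Srgn and Serpinb9 lost the call without either early array or late array 1, Serpinb9 also without either 4-hour IFN-γ array (adjusted p = 0.0837). Prf1, the pore former that acts with granzymes, read 5.76, 5.70, 5.90 and 5.81, near the antisense controls.

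Among 25 cytokines and antagonists 2 rose, Il18 and Vegfa, and 1 fell. Il1rn, the interleukin 1 receptor antagonist, went from 8.50 and 8.52 to 6.69 and 7.05 (-1.64, adjusted p = 0.00084), and was called whichever array was left out. Il18 (0.66) and Vegfa (0.60) were below the antisense controls, and Il18 lost the call without either early array or late array 1 (adjusted p from 0.0706 to 0.112). Vegfa lost it without any 1 of the 4 arrays in medium (adjusted p from 0.106 to 0.196). Tnf, an early cytokine of activation, differed by -0.25 (adjusted p = 0.29), and Il12b, at the level of those controls, by 0.03.

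Immediate early genes, which answer handling within minutes, fell in 6 of 27 and rose in 1. Gadd45b went from 10.52 and 10.30 to 9.35 and 9.19 (-1.14, adjusted p = 0.0020), the phosphatase gene Dusp1 from 8.29 and 8.19 to 7.17 and 7.38 (-0.96), and Zfp36, which marks cytokine messages for decay, from 9.07 and 9.05 to 8.36 and 8.57 (-0.60). Fos was the one that rose, from 4.72 and 5.03 to 5.71 and 6.23, starting below the antisense controls. Its call (1.10, adjusted p = 0.043) was lost without any 1 of the arrays in medium or of IFN-γ at 4 hours (adjusted p from 0.0553 to 0.288) and with quantile normalization (adjusted p = 0.0773) or median centring (0.059). Without early array 1 or 2, or late array 1, 1 of the 6 falls was called. That was Gadd45b. The count was 3 without late array 2 or either 4-hour IFN-γ array, and the block called 9.

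Of 34 measured constitutive proteasome subunits 13 fell (38.2%) and 0 rose, with a median of -0.58, and 32 of 34 were negative. The falls were even in size, from 0.46 to 0.85, and came from each part of the particle. Psma3, of the outer ring of the core, went from 10.07 and 10.10 to 9.25 and 9.39 (-0.76, adjusted p = 0.023). Psmc3, an ATPase of the cap's base, went from 8.50 and 8.50 to 7.67 and 7.94 (-0.70), and Psmd7, of the lid, from 9.27 and 9.26 to 8.24 and 8.59 (-0.85). Psmb3, of the inner ring, fell by 0.60. As for every called gene, none of these groups overlapped.

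With the block 27 of the 34 subunits were called lower. None was without either early array, 1 and 3 were without late array 1 and 2, 2 without either 4-hour IFN-γ array, and 23 without either 16-hour IFN-γ array. The median of the arrays numbered 1 was -0.65 and that of the arrays numbered 2 was -0.48, so both pairs showed it. Psmb8, an inducible subunit that replaces a constitutive one under interferon, read 11.06 and 11.03 and then 10.59 and 10.83 (-0.34, adjusted p = 0.21).

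Of 27 tRNA synthetases and genes of amino acid supply 8 fell (29.6%) and 0 rose, with a median of -0.51. Psat1, of serine synthesis, went from 8.51 and 8.64 to 7.16 and 7.50 (-1.25, adjusted p = 0.0061), Gars, the glycyl synthetase, from 8.00 and 8.15 to 6.95 and 7.19 (-1.01, adjusted p = 0.0060), and Slc7a5, a transporter of large neutral amino acids, from 8.34 and 8.34 to 7.41 and 7.48 (-0.89, adjusted p = 0.0030). Eprs fell by 1.26, from near the antisense controls, Lars by 0.69 and Aars by 0.65. Atf4, the transcription factor of the amino acid response, fell by 0.58. Wars, the tryptophanyl synthetase, differed by -0.23 (adjusted p = 0.39). The block called 16. The calls came to 0 and 1 without early array 1 and 2, 3 without late array 1, and 13 without either 16-hour IFN-γ array. Atf4 lost the call without any 1 of the arrays in medium or of IFN-γ at 4 hours, and with quantile normalization (adjusted p = 0.17).

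Chaperones of the cytosol and mitochondria fell in 7 of 20, with 0 higher and a median of -0.26. Hspa1a and Hspa1b encode the stress-inducible HSP70. Hspa1a went from 7.23 and 7.27 to 6.38 and 6.29 (-0.92, adjusted p = 0.0029), and Hspa1b from 6.24 and 6.09 to 4.83 and 5.0, below the antisense controls at 16 hours (-1.26). They are near-identical genes, so their probe sets may share signal. Hspd1, the mitochondrial HSP60, went from 9.54 and 9.65 to 8.32 and 8.70 (-1.08, adjusted p = 0.021), and Hsph1 fell by 0.90. A dimmer probe set of Hspd1 differed by 0.09 (adjusted p = 0.792). Hspa1a and Hspa1b were called whichever array was left out. The count was 2 without either early array or late array 1, and 4 without either 4-hour IFN-γ array.

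The promoter of Hspd1 is shown with 2 matches in capitals to the inverted repeat of the heat shock element. It lies at chr1:55087883-55088182 of GRCm38.p6, on the minus strand, and the first match begins 144 bases before the RefSeq start.
Hspd1: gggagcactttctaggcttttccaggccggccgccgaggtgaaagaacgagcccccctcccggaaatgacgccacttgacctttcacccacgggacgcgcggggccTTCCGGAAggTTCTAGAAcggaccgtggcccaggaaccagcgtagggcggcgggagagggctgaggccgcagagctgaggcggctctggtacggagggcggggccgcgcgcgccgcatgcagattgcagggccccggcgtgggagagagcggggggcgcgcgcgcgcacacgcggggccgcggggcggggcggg
The letters searched were TTCNNGAA, the same on both strands, held by 8.52% of all promoters in the table, 8.61% of those of arrayed genes, 7.5% of the 200 for genes that fell and 10% of the 100 for genes that rose. Of 16 heat shock protein genes with a promoter there, 4 held them.

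Of 53 measured cell cycle genes 11 fell (20.8%) and 0 rose, with a median of -0.32. Mcm2, Mcm3, Mcm4, Mcm5 and Mcm7 among them encode subunits of the MCM helicase that unwinds DNA. Mcm5 went from 10.02 and 9.92 to 9.23 and 9.01 (-0.85, adjusted p = 0.0057) and Mcm4 from 8.13 and 8.32 to 7.22 and 7.56 (-0.83, adjusted p = 0.027). Cdc6, which loads the helicase, went from 7.01 and 7.17 to 6.02 and 6.35 (-0.90, adjusted p = 0.020). Lig1, the replicative ligase, fell by 0.72. Mki67, a marker of cycling cells, read 7.49, 7.70, 7.01 and 7.41 (-0.38, adjusted p = 0.465, or 0.155 with the block). The dimmer probe sets of Mcm5 and Lig1 differed the other way, by 0.19 and 0.22, neither called. That of Mcm5 read 6.28 at 4 hours and 6.47 at 16 hours, above the antisense controls, and that of Lig1 was below them. With 1 mean value per gene both genes lost the call.

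The block called 24 of the 53 lower. None was called without either early array, 2 and 4 without late array 1 and 2, and 5 without either 4-hour IFN-γ array. Cdkn1a, the cell cycle inhibitor p21, fell as well, from 8.87 and 8.76 to 8.07 and 8.06 (-0.75, adjusted p = 0.0061), and lost the call without early array 1 (adjusted p = 0.103) or 2 (0.0597).

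The promoter of Cdc6 is shown with a match in capitals to the site of E2F, the factor family of S phase genes. It lies at chr11:98907901-98908200 of GRCm38.p6, on the plus strand, and the match begins 138 bases before the RefSeq start.
Cdc6: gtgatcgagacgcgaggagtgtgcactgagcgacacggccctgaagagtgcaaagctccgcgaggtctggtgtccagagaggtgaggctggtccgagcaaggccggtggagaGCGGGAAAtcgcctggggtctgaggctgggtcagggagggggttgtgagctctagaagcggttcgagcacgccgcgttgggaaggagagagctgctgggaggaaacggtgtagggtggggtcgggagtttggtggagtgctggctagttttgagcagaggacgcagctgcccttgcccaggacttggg
The letters searched were TTTCCCGC on both strands, held by 1.07% of all promoters in the table, 2.20% of those of arrayed genes, 6% of the 200 for genes that fell (12, among them Cdc6, Mcm3 and Mcm7) and 1% of the 100 for genes that rose. Of 43 cell cycle genes with a promoter there, 5 held them.

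Glycolytic genes fell in 6 of 18, with a median of -0.06. Ldha, lactate dehydrogenase, went from 10.54 and 10.51 to 9.86 and 10.00 (-0.59, adjusted p = 0.023), and Pfkfb3, which activates the pathway's pacemaker, from 7.55 and 7.48 to 6.71 and 6.73 (-0.79, adjusted p = 0.0050). Eno2 fell by 0.74, Pfkp by 0.66, Pgk1 by 0.54 and Pkm by 0.46. None of the 6 was called without early array 1 or 2, 1 without late array 1 or 2, and 2 without either 4-hour IFN-γ array. The dimmer probe set of Pfkfb3 differed by 0.12.

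Of 67 genes of the respiratory chain and ATP synthase 0 were called by limma, with a median of -0.11. They ranged from -0.61 to 0.31, and 50 of 67 were negative. The block called 1 higher and 5 lower, beside 4.21% and 9.76% of all genes. Of 36 cytosolic ribosomal protein genes 0 were called with or without the block, with a median of 0.05. Of 14 BCL2 family genes, the regulators of apoptosis, 0 were called, with a median of 0.04, and of 18 caspases and genes of death receptors 0, with a median of 0.05. With the block 2 and 3 of these last groups were lower, beside 9.76% of all genes. Among them were Bcl2l11, which encodes the death effector BIM (-0.36, adjusted p = 0.23, or 0.041 with the block), and Casp4 (-0.60, adjusted p = 0.095, or 0.0032 with the block). The dimmer probe sets of Bcl2l11 differed by 0.14 and -0.17 (adjusted p = 0.34 and 0.25 with the block).

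**Figure D4:**
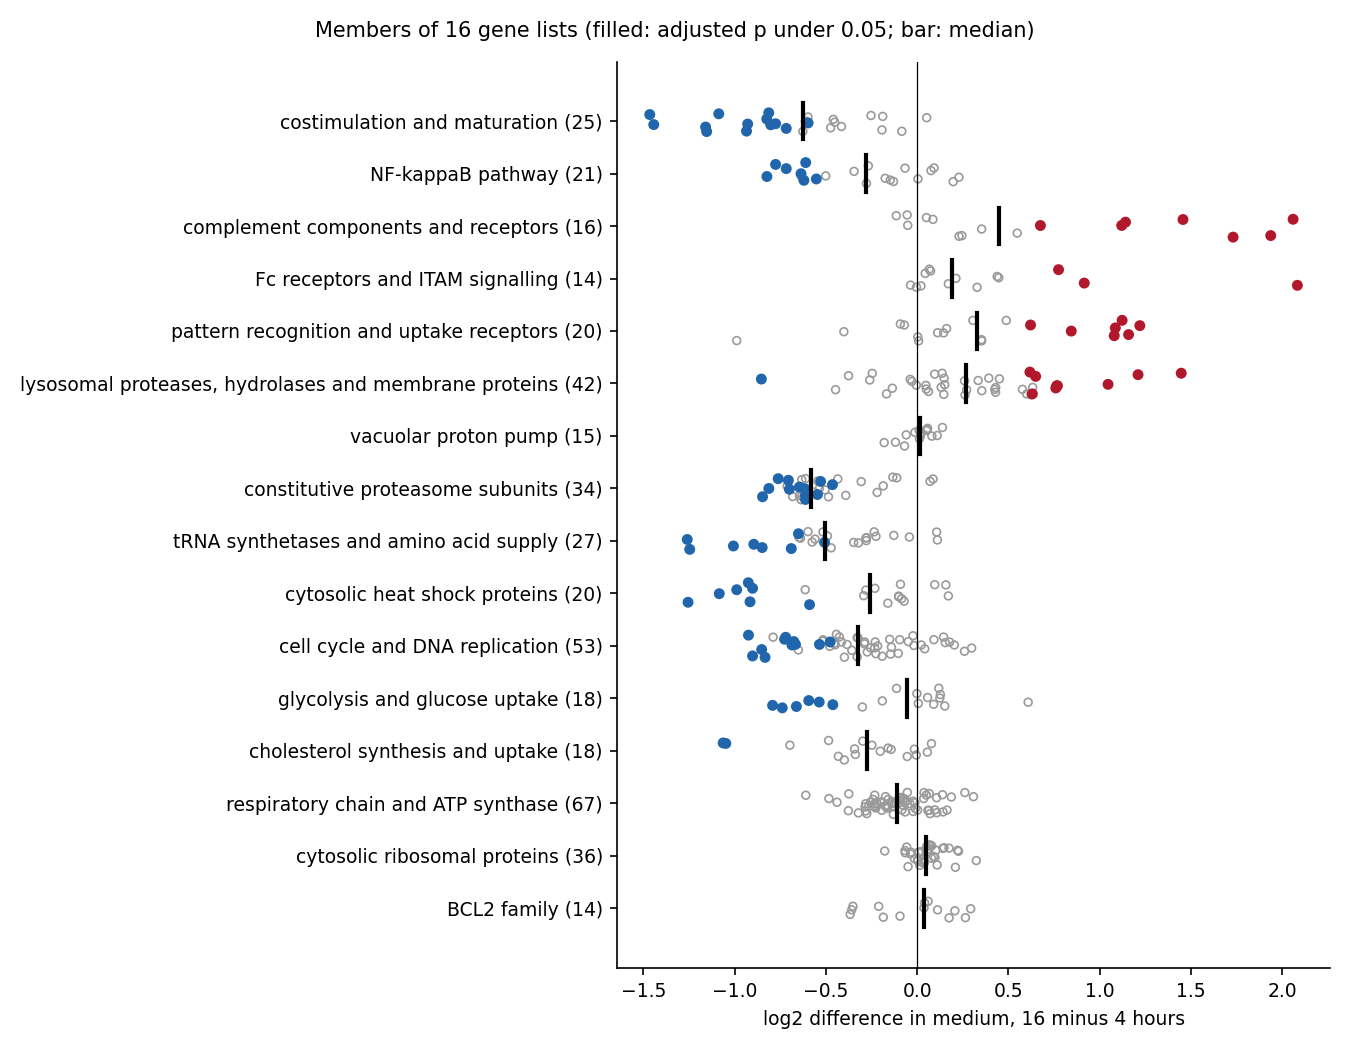
Log2 difference, 16 minus 4 hours in medium, of each measured member of 16 gene lists, with the number of members in brackets, the called members filled (red higher, blue lower) and the list's median as a bar. Proteasome subunits (median -0.58) and maturation genes (median -0.63) lie left of 0, complement genes spread to the right, and ribosomal proteins (median 0.05) and the proton pump (median 0.02) lie at 0.

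Of 12 genes of MHC class II presentation 0 were called by limma, with a median of 0.20. With the block 4 rose and 1 fell, beside 4.21% and 9.76% of all genes. Quantile normalization also called 4 higher. H2-Oa and H2-DMb1, of the chaperones that edit class II peptides, differed by 0.32 and 0.31 (adjusted p = 0.144 and 0.166, or 0.0455 and 0.0495 with the block), and Ifi30, a thiol reductase of endosomes, by -0.38 (adjusted p = 0.10, or 0.025 with the block). Of 15 class I presentation genes H2-T24 alone was called, a rise of 0.92 (adjusted p = 0.0037), which lost the call without early array 1 (adjusted p = 0.0672).

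Among interferon genes, 4 of 18 type I targets rose and 0 fell, with a median of 0.10. Ifi204 went from 7.93 and 7.97 to 8.78 and 9.16 (1.02, adjusted p = 0.010), Ifitm3 from 9.77 and 9.65 to 10.40 and 10.46 (0.72, adjusted p = 0.014), Ifit3 rose by 0.70 and Ifit2 by 0.91. Isg15 differed the other way, by -0.49 (adjusted p = 0.083). None of the 4 was called without early array 1 or 2 or late array 2, and 2 without late array 1. Of 21 genes of the response to IFN-γ 0 rose and 3 fell, Gbp2 (-0.75), Icam1 and Irf8, and none was called without early array 1 or 2 or late array 1. The block called 3 higher and 5 lower, beside 4.21% and 9.76% of all genes, and quantile normalization 3 higher and 2 lower. Irf1, the response's early factor, read 10.02, 10.08, 9.64 and 9.64 (-0.40, adjusted p = 0.060). Ido1, the enzyme that opens tryptophan breakdown, read 5.67, 5.67, 6.01 and 5.71, at the level of the antisense controls.

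The same 12 hours were measured in cells given IFN-γ, on arrays that the comparison in medium does not use, although both share the estimate of spread. There 102 probe sets were higher (0.821%) and 161 lower (1.3%), 263 in all (2.12%), and by gene 83 were higher (1.01%) and 133 lower (1.61%), 216 in all (2.62%). Of the 133 genes that rose in medium 127 had a higher 16-hour mean under IFN-γ as well, and 54 were called there, which is 40.6% of the 133 and 65.1% of the 83. Of the 251 that fell all 251 were lower with IFN-γ, and 105 were called, which is 41.8% of the 251 and 78.9% of the 133. None was called the opposite way. Actb 3′ to 5′ ratios with IFN-γ were 1.47 and 1.65 at 4 hours and 1.68 and 1.66 at 16 hours. Those of Gapdh were 0.876 and 0.918 at 4 hours and 0.828 and 0.906 at 16 hours.

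Several of the genes with large changes in medium had near values with IFN-γ. C1qb rose by 2.06 in medium and 2.18 with IFN-γ, C1qc by 1.73 and 1.77, and Lyz2 by 1.61 and 1.66. Gzmb fell by 2.02 and 2.05, Laptm4b, a lysosomal membrane protein, by 1.53 and 1.48, and Fdps by 1.06 and 1.07. The proteasome list had a median of -0.58 in medium and -0.45 with IFN-γ, with 13 and 1 called, and the maturation list -0.63 and -0.72, with 13 called in each.

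Whether the change over time differed between medium and IFN-γ was tested by the interaction over all 8 arrays. Limma called 0 of 12422 probe sets (0%) and 0 genes, with a smallest adjusted p of 0.158, and 353 probe sets had an unadjusted p under 0.05. With the replicate number as a block 30 probe sets were called (0.242%), all with the larger value in medium, and 9 genes by their brightest probe sets (0.109%). Of the 9, 7 had risen in medium: Ccl9, Ptafr, Ighg3, Ikzf1, Cybb, Ccr1 and Emp1. Ccl9 rose by 1.36 in medium and differed by 0.06 with IFN-γ, where its arrays went from 6.53 and 6.69 at 4 hours to 6.69 and 6.65 at 16 hours. Ptafr, the receptor for platelet-activating factor, rose by 1.16 and differed by -0.14. At 4 hours Ikzf1 read 5.15 and 5.16 without IFN-γ, beside 6.10 and 6.17 under it. By 16 hours these were 6.39 and 6.48, beside 6.26 and 6.30. Ighg3 likewise began at 7.39 and 7.41, beside 8.29 and 8.23, and ended at 8.68 and 8.98, beside 8.32 and 8.75. For Ccl9 and Emp1 both 4-hour IFN-γ arrays were instead lower than the early arrays. The part of the higher 3′ to 5′ ratios of the early arrays in these differences was not tested. The remaining 2 genes, Cxcl10 and Pvr, were below the antisense controls at both times in medium (-0.11 and -0.17), so a change there could not be read, and fell with IFN-γ (-1.58 and -1.13).

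**Figure D5:**
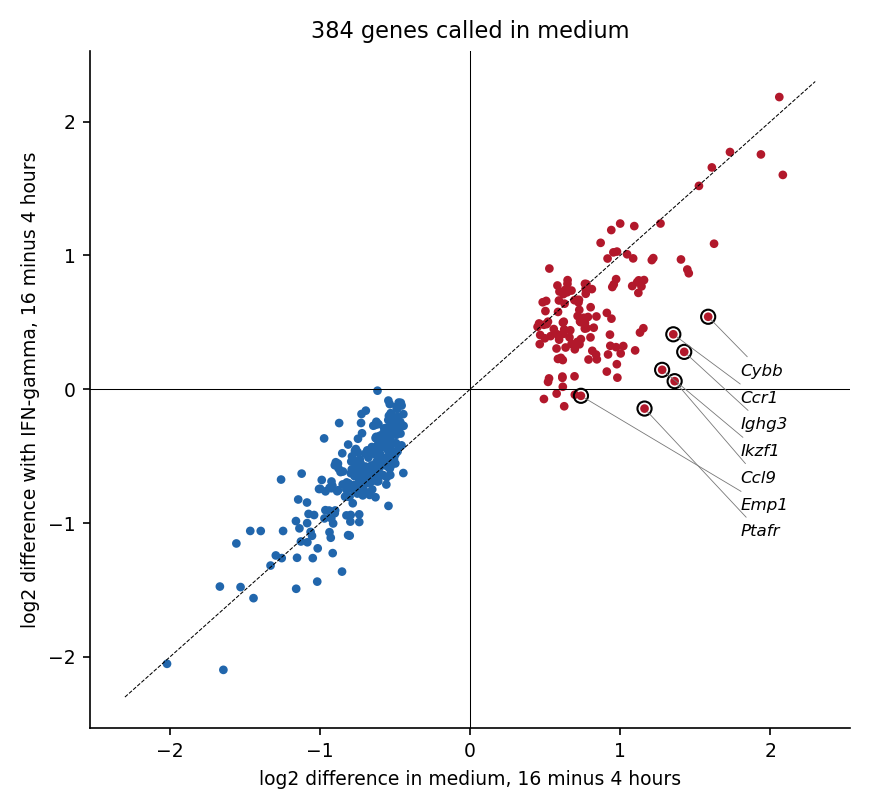
Log2 difference over time in medium (horizontal) and with IFN-γ (vertical) of the 384 genes called in medium, higher in red and lower in blue; the dashed line marks equal differences. Rings mark the 7 genes whose changes differed with the replicate number as a block, all below the line.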

How the data were processed

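RNA of 8 samples, 2 in each of 4 groups, was measured on Affymetrix MG-U74Av2 arrays. The deposited values are linear intensity values per probe set, and the submitters' processing notes name RMA, with no version. The members and gene lists were chosen with earlier results of these data known. Log2 of the intensity was fitted with limma 3.58.1 in R 4.3.3 as 4 group means over all 8 arrays, without a block, with Benjamini-Hochberg adjustment of p over 12422 probe sets, leaving out 66 controls. Of these, 10833 carried 1 gene symbol, 396 several and 1193 were unlisted in the platform annotation. A gene was read by its probe set of highest mean, which gave 8251 genes. Called means an adjusted p under 0.05.

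Same-numbered arrays deviated together in all 6 pairs of groups (r between 0.367 and 0.740). The numbers were therefore also used as a block, which pairs the arrays. The main fit, which gives the calls wherever the block is not named, leaves this pairing out. So do all fits that leave out 1 array, so calls lost there do not show what the paired fit would lose. The pairing comes from the data and not from the labels. The rule for naming takes up the 30 largest rises and 30 largest falls among called genes whose groups do not overlap. It adds up to 6 genes of smallest p of each of 50 lists, whether called or not, and a set list of reference genes. It also adds the 8 differences between the time effects of smallest p each way among genes called in medium. Not all of these genes are given in the text: Pla2g7 (1.53), Procr (-1.33) and Csrp1 (-1.29) are among those left out. Genes named because a count was 5 or fewer, or as members of a short list, were chosen after their values were seen. On simulated data (12422 probe sets, 200 changed) the fit recovered 73% of changes of size 1 and 15% of size 0.5, with 6 false among 94 calls. The simulated noise was independent between arrays, without the shared deviation of same-numbered arrays. With the block the simulated calls were fewer (66), whereas the real ones were more. These rates therefore need not hold for the real arrays. Arrays give no read depth, and 2 arrays per group limit the precision. Promoter sequences are from RefSeq, GRCm38.p6.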

Additional observations from a re-analysis of the deposited data

Results flagged for a closer look

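The change over time differed between medium and IFN-γ in 9 genes when limma was fitted with replicate blocks. The difference, medium minus IFN-γ, was 1.30 for Ccl9 (adjusted p = 0.00852), 1.31 for Ptafr (0.00626), 1.13 for Ikzf1 (0.00948), 1.15 for Ighg3 (0.0347), 0.94 for Ccr1 (0.0388) and 1.04 for Cybb (0.0477). It was 0.79 for Emp1 (0.0371), 1.47 for Cxcl10 (0.00948) and 0.97 for Pvr (0.0191), which the rule for naming does not take up and which were chosen after their values were seen. Of the 9, 7 had risen in medium. Cxcl10 and Pvr had not, and were below the antisense controls there. Without the block limma called 0 differences, with a smallest adjusted p of 0.158 and 353 probe sets at an unadjusted p under 0.05.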

How the results depend on the processing

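The main counts were 212 probe sets higher and 319 lower in medium. They were 562 and 1005 with the replicate block, 272 and 467 with only the arrays compared, 859 and 1397 with both choices, 86 and 58 at an adjusted p under 0.01, and 53 and 41 with a log2 difference of at least 1. They were 252 and 257 with quantile normalization, 177 and 378 with median centring, 213 and 390 without the dimmest 40%, 215 and 357 with a trended robust fit, and 138 and 246 with 1 mean value per gene. Leaving out 1 array gave 46 to 340 higher and 27 to 583 lower. An alternative chosen after seeing the data, without both 16-hour arrays numbered 1, gave 317 and 291. The share of calls that were higher was 39.9%, and 49.5% with quantile normalization, 31.9% with median centring and 35.9% with the block. With IFN-γ 263 probe sets were called, 1259 with the block, 120 with only the arrays compared, 1023 with both choices, 66 at an adjusted p under 0.01, 64 with a difference of at least 1, and 27 to 708 leaving out 1 array. The difference of the time effects had 0 calls, 30 with the block and 0 under the other settings run. Of 156 called named genes, the block kept 156, quantile normalization 140 and median centring 152. A dimmer probe set had the opposite sign for Apoe (-0.018), Csf1r (-0.0088), Hspd1 (0.090), Lig1 (0.22), Mcm5 (0.19), Mcpt8 (-0.18), Pa2g4 (0.28), Pfkfb3 (0.12) and Vpreb3 (-0.056). The same held for 2 of 3 dimmer probe sets of Fdps (0.25 and 0.10) and 1 of 6 of Ighg3 (-0.062). The causes were not tested. Signal near the antisense controls limits 33 of the 133 rises at 4 hours and 38 of the 251 falls at 16 hours.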

Other observations

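Immunoglobulin genes were chosen as a group after their values were seen. Of 28 measured, 8 rose in medium and 0 fell, beside 1.61% of all genes that rose, with a median of 0.43 and a range from -0.04 to 1.43. Ighg3, a heavy chain constant region, went from 7.39 and 7.41 to 8.68 and 8.98. With IFN-γ the median of the group was 0.31 and limma called 0 higher. The 6 dimmer probe sets of Ighg3 differed by -0.06 to 1.24. The 12 B cell markers had a median of 0.32 in medium, with 10 of 12 positive, 2 higher and 5 higher with the block, and their part in the immunoglobulin values was not tested. Immunoglobulin genes share sequence, so their probe sets may share signal.

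Of the 30 probe sets whose change over time differed between medium and IFN-γ with the block, 27 were higher at 16 hours in medium, 20 were called in medium and 4 with IFN-γ. By annotation 20 had 1 symbol, 5 several and 5 were unlisted. Of the 20 with 1 symbol, 11 were not the brightest probe set of their gene. For these 11 the difference was 0.95 (Rnf2) to 1.57 (Suz12). On the brightest probe sets of the same genes it was -0.16 (Psap) to 0.61 (Lypla1), and none of those was called.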
